A study of Mus musculus with 4 samples.

Results

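Clusters of RNA crosslinked to PTBP1 in mouse heart were examined in protein-coding genes that span under 5000 nt. A cluster is a stretch of the genome, about 70 nt long at the median, where the sequenced RNA fragments piled up. Members were clusters on chromosomes 1 to 19 whose midpoint lay in the span of exactly 1 protein-coding gene of GRCm38 (the mm10 assembly), where that span was under 5000 nt. Ribosomal protein genes, with symbols starting in Rpl or Rps, were left out. The rule used gene length and position only, and no measured fold. Replicate 1 gave 2292 members among 376266 clusters (0.609%), in 880 genes, and replicate 2 gave 2321 among 388894 (0.597%), in 892 genes. Clusters in both replicates were found in 768 genes, in replicate 1 only in 112 and in replicate 2 only in 124, which makes 1004 genes.

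PTBP1, polypyrimidine tract binding protein 1, is an RNA-binding protein that holds on to stretches rich in U and C. In introns it is best known for repressing the inclusion of nearby exons, and in mature RNA it also acts on 3′ end processing, stability and translation. Short genes have little intron sequence, and many of them encode abundant small proteins of mitochondria, of the contractile machinery and of protein synthesis.

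PTBP1 was measured by eCLIP, in which ultraviolet light crosslinks RNA to protein and an antibody then recovers the protein with its trimmed RNA. All 4 samples were whole heart of WT C57BL/6 mice: the immunoprecipitates IP5 (replicate 1) and IP6 (replicate 2) and the size-matched inputs Input 5 and Input 6, with each input set aside from the lysate before the antibody step. The frozen hearts were ground to powder before crosslinking, and nothing in the labels gives an age or a sex, or says whether separate mice gave the replicates, so their spread may be technical. Setting an immunoprecipitate against its input addresses which RNAs of the heart were bound by PTBP1. Each log2 fold is the authors' own value for 1 cluster, immunoprecipitate over the input of the same lysate, and so is each −log10 p-value. The read depth behind a cluster is unknown. With 2 lysates and 1 deposited fold per cluster and lysate, a test over samples would rest on 1 residual degree of freedom and was not run: all values here are descriptions, and differences between groups of genes were not tested. Wilson intervals cover counting error only and treat clusters as independent.

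The labelled tissue was checked against markers of heart cell types. All 7 heart muscle markers had clusters in both replicates, Ryr2 with most (524 and 534) and Tnni3 with fewest (8 and 8). Clusters in both replicates were also found in 5 of 5 fibroblast, 3 of 4 endothelial, 3 of 3 mural, 5 of 5 macrophage and 4 of 4 red blood cell markers. Cldn5, an endothelial tight junction gene, had 0 clusters in replicate 1 and 3 in replicate 2. In whole tissue, fewer cells of a type and less RNA per cell cannot be told apart.

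Sequence was at hand only where a cluster reached into the window around an annotated gene start. Members overlapped such windows 23 times in replicate 1 and 27 times in replicate 2. The 8 pieces shown, as examples on either side of input, are those left after asking for at least 20 bases shared by both replicates. Each piece is the stretch shared by overlapping clusters of both replicates, at most 30 bases long, taken from the RefSeq promoter table of GRCm38.p6 and written 5′ to 3′ on the strand of the transcript. Capitals mark TCTT, the DNA form of the UCUU core that PTBP1 is known to bind.
Myl6, chr10:128493227-128493256, minus strand: ttgctgctTCTTtttttgcctctcctctga
Myl6, chr10:128493082-128493111, minus strand: tctcccggaggggaagggtgggagtgggag
Id3, chr4:136143826-136143855, plus strand: tgtttgctgctttaggtgtcTCTTttcctc
H2bc8, chr13:23571412-23571441, plus strand: TCTTtgttgcttgtttctaccatgcccgag
Fau, chr19:6057967-6057987, plus strand: TCTTcgcggtagcagcagcgg
Gstp1, chr19:4037877-4037906, minus strand: gtacccctctgtctacgcagcactgaatcc
Cox7c, chr13:86046754-86046783, minus strand: ggTCTTcgcgctctgccgagcaaggtcgtg
Atp5g1, chr11:96075588-96075617, minus strand: tcaccttgagcagggagtgtgctgtgggcc
The first Myl6 piece (a myosin light chain gene) was 83.3% pyrimidine, and its cluster stood at log2 folds of 1.04 (replicate 1) and 0.84 (replicate 2). The second, in another cluster, was 26.7% pyrimidine with no TCTT, at 1.46 and 0.10. The Id3 piece (an inhibitor of DNA binding) was 76.7% pyrimidine, with 0.63 and 0.88. The H2bc8 piece (a histone H2B gene) was 70% pyrimidine, with 0.04 and 0.20. These 4 lay above 0 in both replicates and the other 4 below it. Fau, a fusion of a ubiquitin-like protein and a ribosomal protein, was 47.6% pyrimidine and held TCTT, at −2.70 and −0.64. Gstp1 (a glutathione transferase) was 63.3% pyrimidine, with log2 folds of −2.81 and −0.97. Cox7c (a cytochrome c oxidase subunit) was 53.3% pyrimidine and held TCTT, with −3.11 and −4.06. Atp5g1 (a subunit of the ATP synthase ring) was 46.7% pyrimidine, with −3.30 and −3.47. TCTT, searched on the transcript strand alone, was in 10.9% of 32851 windows of 30 bases just after the start of all genes, and in 13.7% of 3809 such windows of genes under 5000 nt. The median window was 46.7% pyrimidine over all genes and 50% in the short ones. Both Myl6 pieces began before the annotated start that their window was built on, by 247 and 102 bases, and so lay outside the stretch that these windows cover. Their clusters had midpoints inside the Myl6 span, as for all members, so that start is not where the span begins. TCTT was thus present and absent among pieces on both sides of input. These genes were named after their values were seen, and none of their clusters was enriched.

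Few clusters of short genes were enriched, and most had a fold below 0. Enriched means here that both the log2 fold and the −log10 p reached 3. In replicate 1, 46 members (2.01%, 95% Wilson interval 1.51 to 2.67) were enriched, where the share over all clusters placed in 1 protein-coding gene was 6.37%. In replicate 2, 24 members (1.03%, 0.696 to 1.53) were enriched, against 4.76%. The member shares were therefore below the background in both replicates. The median log2 fold of members was −0.77 in replicate 1 and −0.82 in replicate 2, where that of all clusters in 1 protein-coding gene was 0.62 in both. Below 0 lay 64.4% and 68.1% of members, against 26.8% and 28.1%. A log2 fold of −3 or less was found in 330 members (14.4%) of replicate 1, where the background was 0.728%. In replicate 2 it was found in 280 (12.1%), against 0.553%. Replicate 1 members ran from −6.25 to 5.27, and replicate 2 members from −7.42 to 4.99.

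Both measures differed between classes of gene length, inside the limit and beyond it. In genes under 1000 nt, 0 of 44 clusters in replicate 1 were enriched, which allows a share of up to 6.82%, and 0 of 51 in replicate 2, which allows up to 5.88%. Here and below, a count of 0 is taken to allow 3 counts, a tighter limit than the upper end of the Wilson interval in the plot of shares by gene span. For genes of 1000 to 2000 nt, the counts were 4 of 196 and 0 of 213 (up to 1.41%), and for genes of 2000 to 3000 nt they were 1 of 452 and 0 of 468 (up to 0.641%). Nearly all enriched clusters thus lay in the longer of the short genes. From 3000 to 4000 nt, 3.02% and 1.87% of clusters were enriched, and from 4000 to 5000 nt, 2.21% and 1.23%. Beyond the limit the shares were 4.71% and 3.61% from 5000 to 20000 nt and 6.94% and 5.03% from 500000 nt up. The median log2 fold went from −1.54 and −1.97 in genes under 1000 nt to −0.38 in both replicates from 4000 to 5000 nt. It was 0.04 and 0.03 from 5000 to 20000 nt, then 0.84 and 0.68 from 100000 to 500000 nt, and 0.74 and 0.62 from 500000 nt up. The enriched share did not move evenly with length below 5000 nt. Between genes of 2000 to 3000 nt and of 3000 to 4000 nt the Wilson intervals did not overlap in either replicate. The upper end of the former was 1.24% and the lower end of the latter 1.98% in replicate 1, and 0.814% and 1.10% in replicate 2. Intervals of the other neighbouring classes there overlapped.

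**Figure D1:**
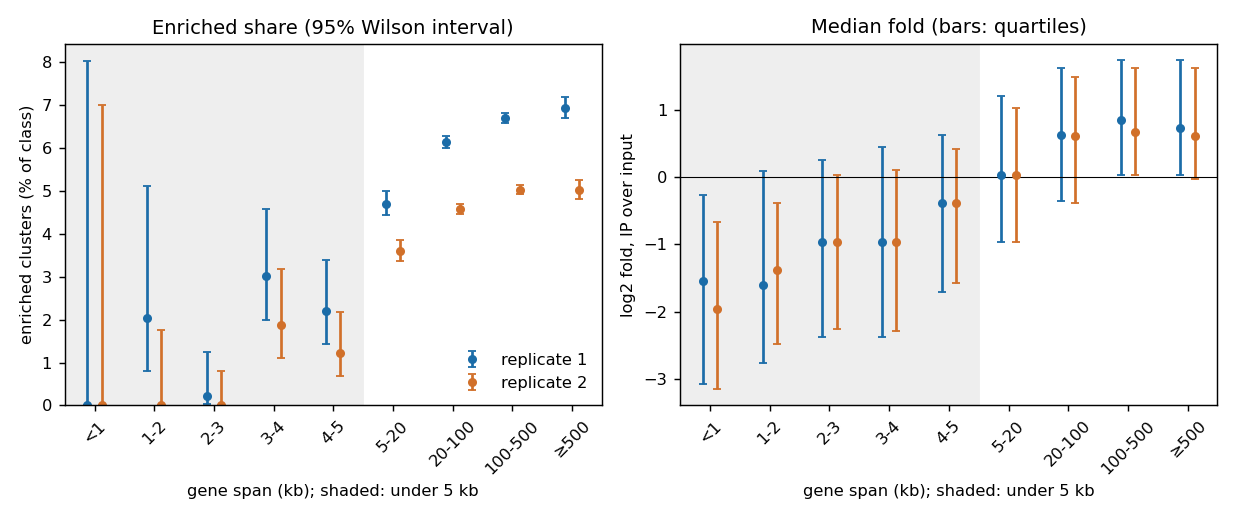
Left, the share of clusters enriched (percent of the class, points, with 95% Wilson intervals) and right, the log2 fold of immunoprecipitate over input (points, medians; bars, lower to upper quartile), by gene span in kb for each replicate. The classes under 5 kb are shaded: their median folds run from −1.97 to −0.38, and the longer classes lie at 0.03 and above.

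Short genes were also sparsely represented. Of 4498 autosomal protein-coding genes under 5000 nt outside the ribosomal ones, 19.6% held a cluster in replicate 1 and 19.8% in replicate 2, where over all spans 61.6% and 61.1% did. The 4498 include 1098 genes of the list of cell surface receptors with 1 or few exons, and 19 of those held a cluster in either replicate. Genes with clusters in both replicates held a median of 2 in each. Per kb of the genes with a cluster, there were 0.793 and 0.797 clusters, against 0.396 and 0.413 over all spans. Genes without a cluster do not enter this measure, and a single cluster weighs more per kb in a shorter gene. In genes under 1000 nt it reached 2.35 and 1.88 per kb on only 1.76 and 1.46 clusters per gene. The values therefore do not show that short genes are covered more densely. Cluster length did not set them apart, with medians of 70 and 68 nt against 69 and 66 nt. A single cluster over both tables was all that 188 of the 1004 genes had, and 82 genes had at least 5 in each replicate.

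The limit itself cut through unlike genes. Just inside it were Zfp422, a zinc finger gene of 4984 nt with median log2 folds of 1.45 and 0.80, Ubald2, also of 4984 nt, with −1.17 and −1.55, and Camk2n1 of 4979 nt with 3.71 and 2.79. Just outside it were Uqcrfs1, the Rieske protein of respiratory complex III, of 5005 nt with −3.43 and −3.47, Srsf5, a splicing factor gene of 5013 nt with 0.07 and −3.63, and Pygo2, a Wnt pathway gene of 5018 nt with 0.35 and −0.47.

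The replicates gave closely similar folds. Each replicate 1 member was paired, by the most shared nucleotides on its strand, with a cluster of replicate 2, which gave 1403 pairs. Across these pairs Pearson's r was 0.90 and Spearman's rho 0.89, and across all 193419 pairs in single protein-coding genes they were 0.78 and 0.74. Pairs share their lysates, and neighbouring clusters share a transcript, so they are not independent. Replicate 1 was higher by a median of 0.12 on the log2 scale, with an SD of the differences of 0.88, against 1.01 over all such pairs. The folds spread more widely in member pairs, with SDs of 2.04 and 1.84 against 1.59 and 1.49. A wider spread raises a correlation by itself, so the higher r is not a measure of smaller error alone. Both folds were −3 or less in 153 pairs (10.9%), against 0.493% of all such pairs. The folds had the same sign in 83.4% of member pairs and 85% of all pairs.

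**Figure D2:**
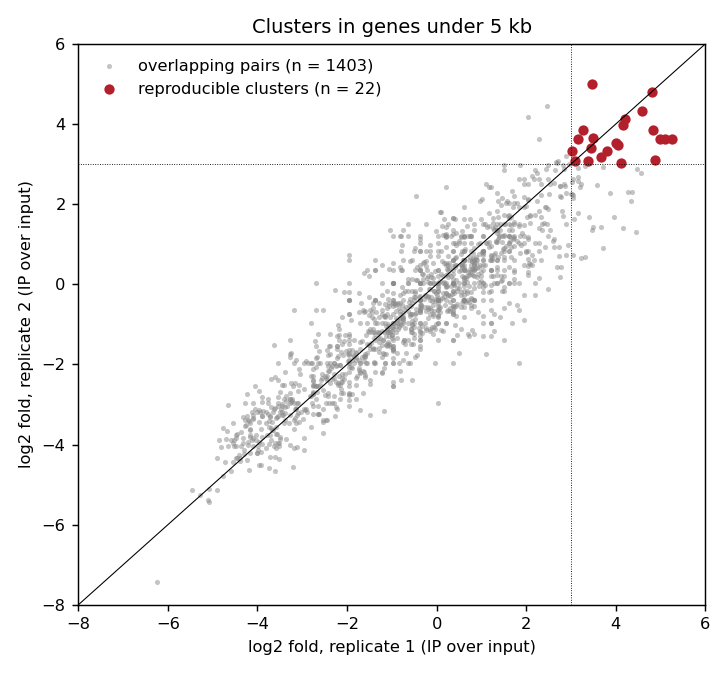
Log2 fold of immunoprecipitate over input in replicate 1 (x) and replicate 2 (y) for the 1403 overlapping cluster pairs of genes under 5 kb (grey) and the 22 reproducible clusters (red), with the line of equal folds and dotted lines at 3. The points follow the diagonal down to −6.25 and −7.42, and 153 pairs lie at −3 or less in both.

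An enriched replicate 1 cluster that overlapped an enriched replicate 2 cluster on its own strand, by 1 nt or more, was called reproducible. There were 22 such members, 0.96% of replicate 1, where the background was 3.99%. They lay in 14 genes, 1.82% of the 768 that had clusters in both replicates, against 26.4% of genes of any span. Most enriched members of replicate 2 had an enriched partner, 22 of 24 (91.7%), while 47.8% of the 46 of replicate 1 did. Over all spans those shares were 78.5% and 62.7%. No reproducible cluster lay in a gene under 3000 nt: 0 of 692 replicate 1 clusters, which allows up to 0.434%. None lay in an lncRNA span, over a small RNA gene or on the minority strand of its gene.

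The 14 genes are taken here in groups of known function, made after the genes were seen. The first 7 serve signalling or the cell surface. Gng8, a gamma subunit of heterotrimeric G proteins, held 3 reproducible clusters, more than any other short gene. The first 2 of them touched, so this rank depends on how that stretch was cut into clusters. The first (chr7:16891861-16892074) had log2 folds of 4.88 in replicate 1 and 3.09 in replicate 2, and the second (chr7:16892075-16892179) 4.01 and 3.53. The third (chr7:16893984-16894158) had 3.44 and 3.41. The first pair lay close to the 5′ end of the span, 6.22% and 10.5% into it, and the third 62.8% into it. Gng8 had 5 clusters in each replicate, all above 0.
Camk2n1, an inhibitor of the calcium/calmodulin-dependent kinase CaMKII, held 1 reproducible cluster (chr4:138458031-138458131) with 4.06 and 3.47. Its neighbours at 51.4% and 57.7% of the span were enriched in replicate 1, at 3.71 and 4.56, and fell short of the limit in replicate 2, at 2.93 and 2.79. Its cluster nearest the 5′ end was at −0.63 and 0.14.
Fcer1g, the common gamma chain of Fc receptors on myeloid cells, was at 3.46 and 4.99 at the 3′ end of its span (chr1:171229597-171229705, 98.3% into it). That is the highest fold of any replicate 2 member. The adjoining cluster had 2.67 and 3.04.
Clec14a, a C-type lectin of endothelial cells, was at 4.16 and 3.98, 95.5% into its span (chr12:58264841-58265007). Its cluster in the middle of the gene was at 0.50 in replicate 1.
Mxra8, a cell adhesion protein, was at 4.58 and 4.33 (chr4:155842186-155842401, 59.1% into the span). Cytl1, a secreted cytokine-like protein, held 2 touching clusters at the 3′ end (chr5:37739590-37739718 and chr5:37739719-37739784), at 4.83 and 3.27 in replicate 1, and both overlapped the same replicate 2 cluster at 3.85. In Fcer1g, Clec14a and Cytl1 the enriched clusters therefore lay in the last 10% of the span.
H2-Q7, a non-classical class I histocompatibility gene, had 2 touching clusters at 3.80 and 3.01 in replicate 1 that overlapped the same replicate 2 cluster at 3.33. The one at 3.01 shared only 10 of its 76 nt with that cluster, and its largest overlap was with a replicate 2 cluster at 2.56. H2-Q7 has near-identical neighbours such as H2-Q6, so its reads may be shared among them.

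Genes of vesicle release and the cytoskeleton followed. Prrt2, a presynaptic membrane protein, held the highest fold of any replicate 1 member, 5.27, at chr7:127018416-127018493, with 3.63 in the overlapping replicate 2 cluster. A touching cluster at 5.09 overlapped the same replicate 2 cluster. In replicate 2 the highest fold of Prrt2 was 4.44, in the cluster next to it. All its 7 clusters in either replicate were above 0, and the enriched ones sat between 71.8% and 82.7% of the span.
Vamp2, a vesicle SNARE protein, had 10 clusters in each replicate, spread over 0.42 to 4.13 in the first and over 0.65 to 3.17 in the second. Its reproducible clusters lay 62.2% and 72.6% into the span (chr11:69090879-69090967 and chr11:69091264-69091384), at 3.68 and 3.17 for the first and 4.13 and 3.03 for the second. In replicate 2 there were 4 enriched clusters, and the cluster adjoining the first of these was at 3.01, close to both. Folds were lower towards both ends of the covered stretch in both replicates.
Tubb5, a beta tubulin, was at 3.15 in replicate 1 (chr17:35834732-35834807), and the enriched replicate 2 cluster, at 3.62, shared 29 of its 76 nt. By most shared nucleotides its replicate 2 partner was another cluster, at 2.68. The 8 and 10 clusters of Tubb5 were all above 0. Beta tubulin genes are much alike in sequence, and the handling of reads that match several of them is unknown here.

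The remaining 4 of the 14 serve metabolism, transcription or a function not named here. Chac1, an enzyme that breaks down glutathione and is known as a stress response gene, had 4.81 and 4.79, the highest lower-of-2 fold of the short genes (chr2:119351911-119352161). Its other clusters ran from −0.96 to 0.94 in replicate 1, and the second cluster of replicate 2 was at 0.03. Slc25a35, of the mitochondrial carrier family, was at 4.98 and 3.63 near the start of its span (chr11:68968223-68968422, 227 nt from the 5′ end), and all its clusters were above 0. Zfp579, a zinc finger gene, had 2 touching clusters at 3.09 and 3.38 in replicate 1 that overlapped the same replicate 2 cluster at 3.08. Smim15, which encodes a small membrane protein, had touching clusters at 4.21 and 4.12 (chr13:108046067-108046191) and at 3.50 and 3.65, while other clusters of the gene went down to −1.16 and −1.83. In Chac1, Smim15 and Camk2n1, enriched clusters and clusters below 0 thus occurred in the same gene. The spans of Maz next to Prrt2 and of Rangrf next to Slc25a35 met or overlapped those spans, and clusters with a midpoint in both were left out by the rule.

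**Figure D3:**
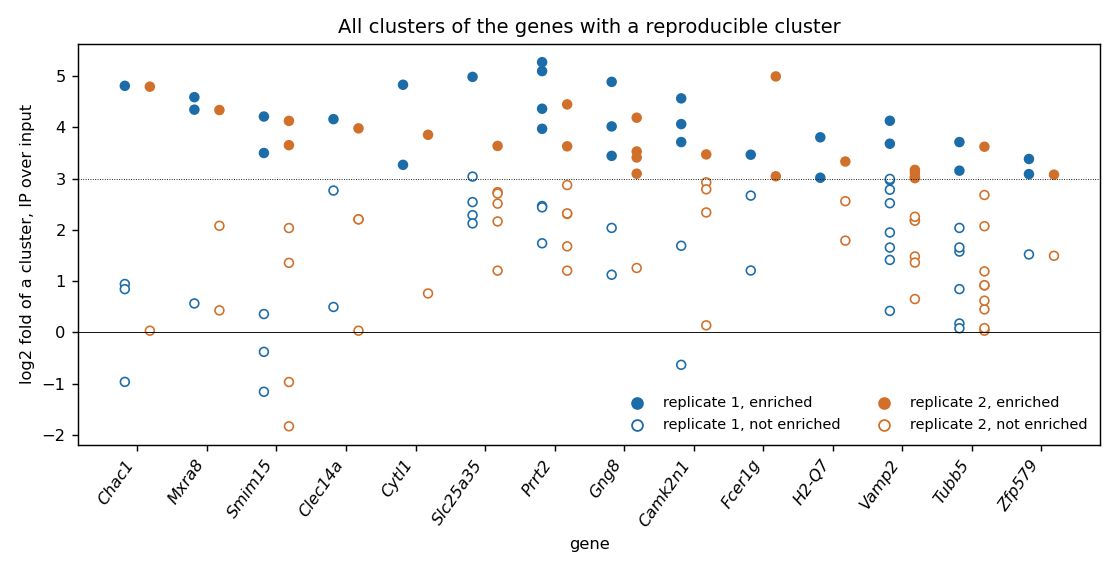
Log2 fold of immunoprecipitate over input for every cluster of the 14 genes with a reproducible cluster, ordered by their highest lower-of-2 fold, in replicate 1 (blue) and replicate 2 (orange). Filled points are enriched and the dotted line is at 3: Chac1 has its pair at 4.81 and 4.79, and Vamp2 and Tubb5 have most clusters below the line.

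A further 24 members were enriched in replicate 1 alone, in 21 genes, and 2 in replicate 2 alone. Each of these had an overlapping cluster in the other replicate with a fold above 0. For the 24, the replicate 2 folds ran from 0.65 to 2.99 with a median of 2.23, and 14 were at least 2. Several were thus just short of the limit. Mgp, matrix Gla protein, was at 4.48 in replicate 1 and 2.87 in replicate 2. Aplnr, the apelin receptor, was at 4.11 and 2.99. Others fell further: Sox18, an endothelial transcription factor, was at 3.31 and 0.69, and a second Tubb5 cluster at 3.71 and 0.92. The 2 of replicate 2 were in Gng8, at 4.18 with 2.04 in replicate 1, and in Ciart, a circadian repressor, at 3.68 with 2.85, which was named after its values were seen.

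Clusters lay mostly in the 3′ part of the short genes. Position was read for the 2191 and 2227 clusters that lay on the strand of their gene, taken from the reference or else from the clusters. Of them, 22.9% in each replicate lay in the last 10% of the span and 6.48% and 5.48% in the first. The first 10% had the lowest folds, with medians of −2.28 and −1.97, and −3 or less was reached by 33.1% and 22.1% of its clusters. In the last 10% the medians were −0.87 and −0.97, with 10.8% and 10.4% at −3 or less. Enriched clusters were in all 10 equal parts of the span in both replicates, from 1 to 9 each in replicate 1.

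At a limit of 2 on either side of 0 in both replicates, high and low folds lay in different short genes. Pairs at 2 or more in both replicates were found in 44 of 631 genes with a pair (6.97%), and pairs at −2 or less in both in 137 (21.7%). No gene held both kinds, but some came close to it. Tnnc1 held a pair at −4.02 and −3.76 and another at 2.29 and 1.84. Uqcrb held a pair at −2.20 and −2.52 and another at 1.21 and 2.43. In genes of 5000 to 20000 nt, 25.6% of 3251 genes held a high pair, 12% a low pair, and 58 held both, though these genes have more pairs. In the 82 genes with at least 5 clusters in each replicate, the SD within a gene had a median of 0.895 and 0.738 on the log2 scale, and the SD between the gene medians was 1.96 and 1.75. In 1741 genes of 5000 to 20000 nt with as many clusters, they were 1.22 and 1.14 within and 1.33 and 1.25 between. All clusters were below 0 in both replicates in 25 of the 82 genes and above 0 in both in 8. Clusters on both sides of 0 were found in 43 of the 82 in replicate 1 and in 42 in replicate 2.

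The genes with most clusters show both ends. Hspa8, the constitutive HSC70 chaperone, and Slc25a4, the heart form of the mitochondrial ADP/ATP carrier, had 31 clusters each over both tables. All 16 and 15 clusters of Hspa8 were at −1.55 or below, with medians of −3.40 and −3.24. Those of Slc25a4 ran from −4.55 to −2.97, with medians of −4.10 and −3.91. Atp5g3, another subunit of the ATP synthase ring, had 24 clusters and medians of −4.18 and −3.94. These genes were covered densely and lay well below input along the whole span. Hspb7, a small heat shock protein of muscle, had 24 clusters with medians of −2.35 and −2.64. Hrc, which binds calcium in the sarcoplasmic reticulum, had 18 with −2.96 and −2.38.
Txnip, a thioredoxin inhibitor, had 21 with −1.08 and −1.21, and Actb, beta actin, had 22 with −0.47 and −0.81. Hspb6, a small heat shock protein of heart and muscle, had 21 clusters with medians of 0.58 and 0.01, close to input. Only Aplnr (18 clusters) and Vamp2 (20 clusters, 2.65 and 2.22) of the 10 genes with most clusters had medians above 1 in both replicates.

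**Figure D4:**
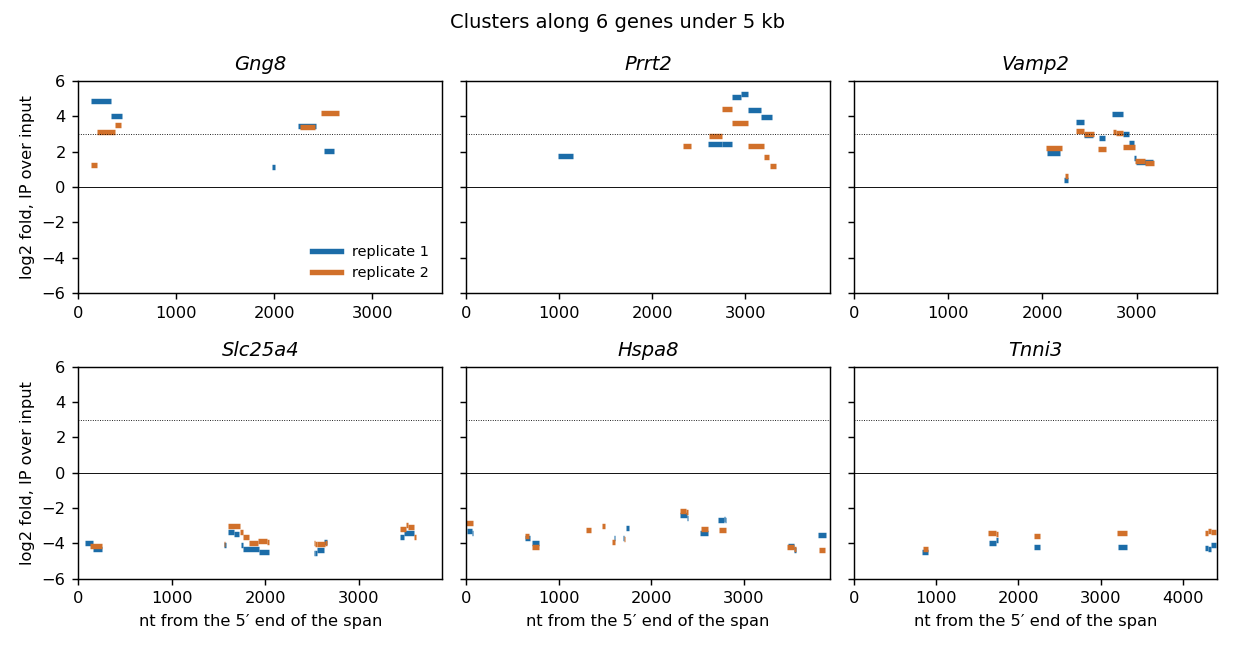
Log2 fold of immunoprecipitate over input (y) against the distance in nt from the 5′ end of the gene span (x) for the clusters of 6 genes in replicate 1 (blue) and replicate 2 (orange). Each bar is as long as its cluster and the dotted line is at 3: Gng8, Prrt2 and Vamp2 lie above 0 throughout, and Slc25a4, Hspa8 and Tnni3 lie at −1.55 or below throughout.

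Gene medians were below 0 in both replicates in 460 of the 768 genes (59.9%), where over genes of any span it was 22.3%. They were above 0 in both in 171 (22.3%), against 58.6%. Both medians were −3 or less in 52 genes (6.77%), against 0.829% of genes of any span. Of genes with at least 5 clusters in each replicate, Chchd10, a protein of the mitochondrial intermembrane space, was lowest at −4.64 and −4.65. Next to Atp5g3 and Slc25a4 came Tpi1, a glycolytic enzyme (−4.20 and −3.50), Eef1a1, the elongation factor that delivers tRNA to the ribosome (all clusters between −4.68 and −3.06), and Tnni3, cardiac troponin I (−4.19 and −3.42). Hspa8, Fabp4, a fatty acid binding protein (−3.44 and −2.95), and Eef1b2, another elongation factor (−3.53 and −2.66), were also among the 10 lowest. Of these named genes, Fabp4 alone also had a cluster above 0 in each replicate, at 1.53 and 0.33. Those lay at different places, and the replicate 1 cluster that overlapped the one at 0.33 was at −0.04.

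Gene lists by function covered 217 of the 768 genes (28.3%), 11 of them in several lists. The medians below are medians of the gene medians, which over all 768 short genes were −0.77 and −0.80, with the 59.9% below 0 in both and 22.3% above 0 in both given above. Members are named from those with at least 2 clusters in each replicate, and highest and lowest refer to these. The respiratory chain list had the lowest median of the 18 lists in both replicates. Of 27 respiratory chain and ATP synthase genes, 26 were below 0 in both replicates and none above 0 in both, with medians of −3.60 and −3.20, and 13 were at −3 or less in both. Atp5e (−4.46 and −3.89) and Cox5b (−3.94 and −4.38), subunits of the ATP synthase and of cytochrome c oxidase, were the lowest. Atpif1, the inhibitor of the ATP synthase, was the exception, with 1.21 and −1.70. Of 13 heart contractile and natriuretic genes, a list that also holds heart forms of cytochrome c oxidase subunits, 11 were below 0 in both and 1, Hspb6, above, with medians of −2.75 and −2.97. Tcap, the titin cap of the Z-disc, was at −3.73 and −3.36, and sarcolipin, Sln, an inhibitor of the calcium pump, had clusters between −2.05 and −0.45. Nppb, the B-type natriuretic peptide, was at 0.44 and −1.30.
All 11 glycolysis and metabolism genes were below 0 in both, with medians of −3.23 and −2.41. Metallothionein Mt1 was at −3.44 and −3.56, and Gapdh only at −1.30 and −1.20. Of 14 mitochondrial carrier and import genes 10 were below and 3 above, with medians of −1.29 and −1.96. That list spans the whole range, from Chchd10 to Slc25a35 at 2.54 and 2.61. Of 15 mitochondrial ribosomal protein genes 12 were below and none above, with medians of −2.38 and −2.33. Mrpl11 was at −2.87 and −3.38.

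Lists of protein and RNA metabolism differed among themselves. Of 14 translation factor genes, 12 were below 0 in both and 1 above, with medians of −2.64 and −2.80. Tpt1, a translationally controlled protein, had −5.10 and −5.37, and Eif1ad, at 1.13 and 1.00, was the member above. Of 10 proteasome and ubiquitin genes 8 were below and 1 above (−2.50 and −2.88). Ubb, a polyubiquitin gene, was at −4.69 and −4.05. Of 10 heat shock and chaperone genes 6 were below and 3 above (−1.50 and −1.85), near the shares over all short genes, and Hspe1, the mitochondrial co-chaperonin, was at −3.38 and −3.56. All 8 splicing and RNA-binding genes were below (−1.92 and −1.86). Among them Srsf2, an SR splicing factor, was at −1.88 and −1.61 and Hnrnpa0 at −0.83 and −0.58. Of 11 histone genes 9 were below and 2 above (−2.23 and −1.29), and the linker histone gene H1f0 was at −0.52 and −1.09. Of 4 genes of RNA polymerases and transcription complexes 1, the elongin B gene Elob, was below in both (−3.27 and −3.32) and none above, and the list had −0.67 and −0.13.

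Lists of regulation and of other heart cell types had medians on either side of those of all short genes. Of 25 transcription factors 11 were below and 10 above, with medians of 0.36 and −0.38. Maf was highest at 1.62 and 1.68, and Hand2, a transcription factor of heart development, was at −1.29 and −1.86. Of 12 immediate early genes 9 were below and 1, Btg2 at 0.84 and 0.72, above (−1.06 and −1.35). Rhob, a small GTPase, was at −2.69 and −2.06, and Fos stood near 0 at −0.25 and 0.03. Of 15 cell surface receptor genes with 1 or few exons 5 were below and 5 above (−0.38 and 0.03). The highest of those with at least 2 clusters in each replicate was the bitter taste receptor gene Tas2r143 at 1.94 and 1.70 on 3 and 2 clusters, followed by Aplnr.
Of 10 endothelial genes 6 were below and 4 above (−0.59 and −0.30), with Clec14a, Aplnr and Sox18 on top and Klf2, a flow-responsive transcription factor, at −0.82 and −1.29. Of 14 macrophage and leukocyte genes 5 were below and 5 above (0.08 and −0.12). With at least 2 clusters in each replicate they ran from C1qa, a complement component, at −1.76 and −1.25, to Fcer1g at 2.67 and 4.02. H2-Ke6, a hydroxysteroid dehydrogenase gene with a single cluster in replicate 2, was lower, at −3.17 and −2.19. A list of matrix and matrix-associated genes also holds others, such as Ly6a, Ly6c1, S100a1 and S100a6, so its values are not those of matrix genes alone. Of its 11 genes 8 were below and 3 above (−1.08 and −2.01). Above were Mgp (3.00 and 1.27), Mfap4, a microfibril protein (1.47 and 0.89), and Ly6c1 (1.04 and 0.92). The matricellular genes Ccn1 (−2.59 and −2.71) and Ccn2 (−2.49 and −2.93) were at the lower end. All 4 red blood cell genes were below (−1.14 and −1.13), the beta globin gene Hbb-bs lowest at −2.61 and −2.30. Of the 14 genes with a reproducible cluster, 4 were in a list, Slc25a35, Clec14a, Fcer1g and H2-Q7, where 28.3% of all 768 genes were.

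**Figure D5:**
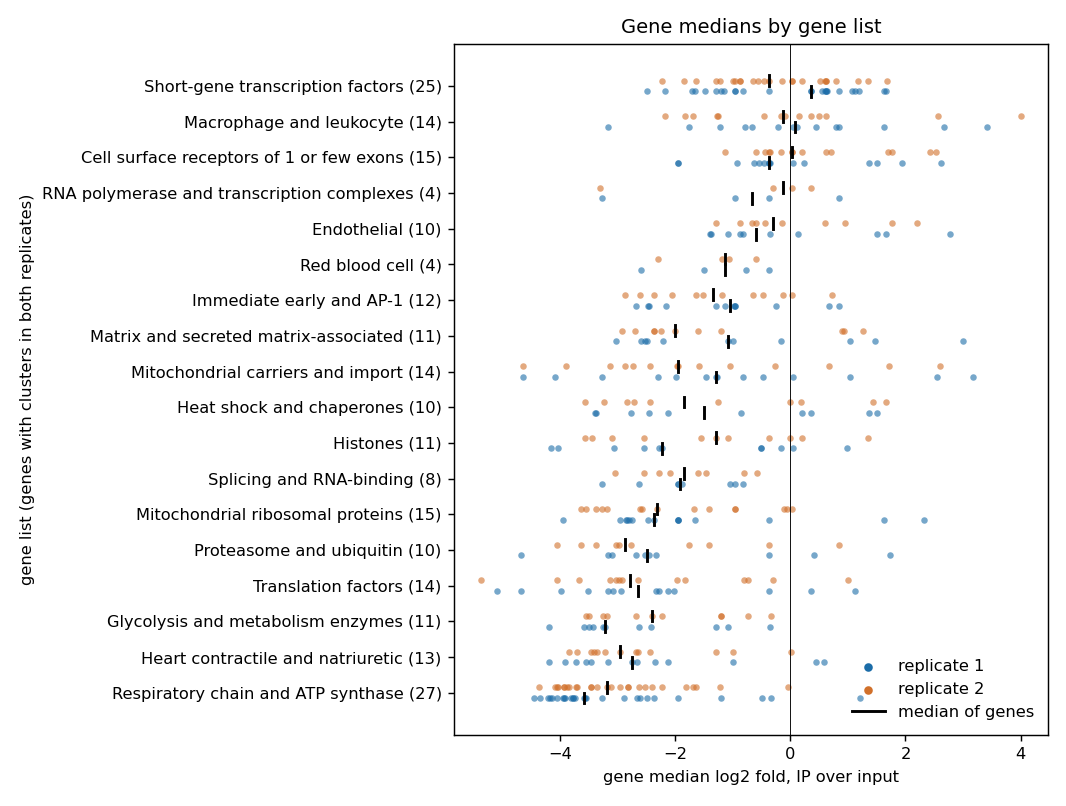
Median log2 fold of each gene's clusters, immunoprecipitate over input, by gene list in replicate 1 (blue) and replicate 2 (orange), with black bars at the median of the genes and the number of genes in parentheses. Respiratory chain genes lie lowest, with list medians of −3.60 and −3.20, and the medians of transcription factors, leukocyte genes and receptors lie between −0.38 and 0.36.

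The lowest member of each replicate sat on a small nucleolar RNA (snoRNA). These RNAs guide the chemical modification of ribosomal RNA and are cut from introns of host genes. In each replicate, 8 short genes held clusters with a midpoint in a snoRNA gene, 21 clusters in replicate 1 and 20 in replicate 2, over 14 snoRNA genes. Their medians were −3.28 and −3.17, and the highest was at −0.14. The cluster over the snoRNA Gm22422 inside Trmt10c (chr16:56035753-56035888), a subunit of mitochondrial RNase P, was the lowest member of both replicates, at −6.25 and −7.42. Snora31 inside Tpt1 was at −5.08 and −5.44, close to the medians of that gene, −5.10 and −5.37. Folds as low also occurred away from snoRNAs, as in a cluster of Ndufc1, a subunit of respiratory complex I, at −5.28 and −5.26. Snord14c, Snord14d and Snord14e inside Hspa8 ran from −4.40 to −1.55. Among their clusters were the lowest and the highest of that gene in replicate 1 and the highest in replicate 2. These snoRNAs and Ndufc1 were named after their values were seen. None of the clusters over small RNA genes was enriched (0 of 22 and 0 of 21, which allows up to 13.6% and 14.3%), and the only such gene that was no snoRNA was a miRNA gene inside Actg1, gamma actin. Its mature miRNA is shown here because a cluster covered the whole hairpin in both replicates, with the seed in capitals.
mmu-miR-6935-3p, chr11:120347350-120347369: uGUUCUUUgucuuuccacag
The 2 clusters over it had log2 folds of 0.68 and −0.22, close to input.

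Few members came from the other strand. Of the members in genes with a strand in the reference, 38 of 1808 (2.1%) and 31 of 1827 (1.7%) lay on the opposite strand. None of them was enriched, which allows up to 7.89% and 9.68%. Clusters in the span of an lncRNA gene as well numbered 100 in replicate 1, and 90 in replicate 2, with a median of −0.38 in each, and 1 of them was enriched in each replicate.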

How the data were processed

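The data were 2 cluster tables from eCLIP of PTBP1 in whole mouse heart, 1 per replicate, each setting an immunoprecipitate against its own size-matched input. Per the file headers, the authors deposited a log2 fold and a −log10 p-value for each cluster beside its coordinates and strand. In the deposited tables the −log10 p stops at 400 and is 0 for every negative fold, so it speaks of enrichment alone. Per the submitters' processing notes, UMI-tools 0.5.1, cutadapt 2.7 and STAR 2.6.0c were used, with the builds mm10 and hg38 named. Which program called the clusters, by what test, and how reads that match several places were handled is not given in the sources used here. No read counts were used, so the precision of a single fold is unknown.

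Clusters were placed by their midpoint in the gene spans of RefSeq's GRCm38.p6 table, which has no exons, so introns and untranslated regions could not be told apart. The fold, −log10 p and overlap limits are given where first used. Deposited starts count from 0 and are printed counting from 1. A gene's strand came from the reference, or from its clusters where at least 90% of at least 3 lay on 1 strand. Python 3.11.15, pandas 2.3.3, numpy 2.4.6 and scipy 1.17.1 were used, and the placing and pairing steps were checked on simulated clusters.

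The members and the 18 gene lists were chosen with earlier results of these data known. Named genes were the 15 highest (14 existed) by the lower fold of a reproducible pair, the 10 with most reproducible clusters, the 10 with most clusters, and the 10 lowest medians among genes with at least 5 clusters in each replicate. They also included, per list, the 3 highest and 2 lowest medians of members with at least 2 clusters in each replicate, and the 3 genes nearest to either side of 5000 nt. A few genes that this rule names are not reported here. Alternatives changed the fold and p limits, the overlap, the length limit, how clusters were assigned to genes, and the gene lists, and left out either replicate.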

Additional observations from a re-analysis of the deposited data

How the results depend on the processing

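The fold limit and the length limit moved the counts most. With the log2 fold limit set to 1, 2 and 4, the enriched share of replicate 1 was 4.89%, 3.45% and 0.873%, and that of replicate 2 was 3.19%, 2.28% and 0.259%. Over all clusters in 1 protein-coding gene those shares were 8.87%, 8.53% and 2.96% in replicate 1 and 7.54%, 7.14% and 1.73% in replicate 2. Reproducible clusters numbered 81, 52 and 4, in 35, 26 and 4 genes. With a length limit of 4000 nt there were 10 reproducible clusters in 5 genes, and the median folds were −0.99 and −1.07. With 10000 nt there were 126 in 70 genes, the enriched shares were 3.11% and 2.11%, and the medians −0.38 and −0.38. Both follow from the genes that the limit lets in.

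A −log10 p limit of 5, an overlap of 50% of the shorter cluster, and whole clusters inside the span changed no value beyond its spread or by over 1.5 times. The median of replicate 1 was −0.81 without clusters on the opposite strand. Without the listed genes the medians were −0.45 and −0.57. Keeping the ribosomal protein genes, an alternative chosen after seeing the data as were those of the next sentence, gave −0.96 and −0.97 and no further reproducible cluster. Counting each gene once gave −0.83 in replicate 1, and joining touching clusters left 16 reproducible regions. Genes with an enriched cluster numbered 15 with replicate 2 alone and 31 with replicate 1 alone. Both medians were below 0 under every alternative that gave a median. Taking a gene's mean, or weighting its clusters by length, changed the sign of 9 and 8 of the named gene medians, among them Atpif1 (replicate 1, mean −0.26) and Ube2m (replicate 2, by length 0.99).

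No paired analysis was possible because the values come from no test, and each deposited fold already sets an immunoprecipitate against its own input. The read depth behind a cluster is unknown, the replicates number 2, and intervals treat clusters as independent. What gene length, transcript abundance and read mapping contribute to the folds was not tested.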

Other observations

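The deposited folds repeat. The 6 commonest fractional parts of the log2 fold held 62.9% of all clusters in each replicate, and 41.6% and 42.7% of those in short genes. Among short-gene clusters, they held 51.8% and 57.5% of those above 0 and 36% and 35.8% of those below 0.

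The ribosomal protein genes that the selection left out added 158 clusters in 57 genes in replicate 1 and 160 clusters in 55 genes in replicate 2.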
